A study of Mus musculus with 8 samples.

Results

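Frizzled receptors and canonical Wnt targets are here 10 mouse genes taken by name: the receptors Fzd1, Fzd2, Fzd4 and Fzd7, the target genes Axin2, Lef1, Nkd1, Rnf43 and Znrf3, and the secreted antagonist Sfrp1. All 10 were found among 39290 gene names, and all 10 passed the filter of a mean of at least 1 FPKM (fragments per kilobase of transcript, scaled to the size of the library) that left 14418 genes for testing. Their levels were measured by RNA sequencing in 8 libraries, 4 titled model and 4 titled high dose. The series title names mice with idiopathic pulmonary fibrosis, a scarring lung disease, and Platycodin D, a saponin of Platycodon root. Both groups carry the same labels of tissue and cells, lung tissue and mouse lung fibroblasts of the line MLF, and differ only in the title. The sources used here do not give strain, age, the agent that made the fibrosis, the dose or any untreated group. The sample descriptions carry the codes QH for the libraries titled model and QM for those titled high dose, initials that could be read the other way round, and every direction below would turn if the titles were exchanged.

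Wnt proteins are secreted lipid-modified ligands that bind the cysteine-rich domain of a Frizzled receptor together with the coreceptor Lrp5 or Lrp6. In the canonical branch, Dishevelled then blocks the complex that destroys beta-catenin, and beta-catenin enters the nucleus and joins TCF and LEF factors on target genes. Several of the best known targets are themselves brakes: Axin2 rebuilds the destruction complex, Nkd1 binds Dishevelled, and Rnf43 and Znrf3 are ubiquitin ligases that remove Frizzled from the cell surface unless R-spondins hold them back. In the adult mouse lung, Wnt signals are known to maintain alveolar type 2 progenitors and to act on fibroblasts.

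The libraries were of whole lung character, since epithelial, endothelial and leukocyte transcripts were present in all of them. Sftpc of alveolar type 2 cells ranged from 8448 to 16820 FPKM, Pecam1 of endothelium from 191 to 241 FPKM and Cd3e of T cells from 5.24 to 8.35 FPKM over the 8 libraries. Col1a1 of fibroblasts ranged from 16.9 to 83.5 FPKM in model and from 68.4 to 127.9 FPKM in high dose. None of these defining markers was at 0. Read counts were not used here. The ratios among very low values gave a rough depth of the libraries relative to model replicate 1. It was 1.00, 1.16, 1.17 and 1.03 in model and 1.23, 1.33, 1.21 and 1.09 in high dose. Each estimate rested on 69 to 111 of 2906 low rows. The highest row of a library made up from 6.17% (model replicate 4) to 41.5% (high dose replicate 2) of its summed FPKM. On the first principal component, with 46.2% of the variance against 18% for the second, model replicate 2 lay closest to high dose. It stood at -4.02, against -49.2 to -22.3 for the other model libraries and 21.8 to 34.6 for high dose. Model replicate 4 stood apart on the second principal component, at -34.2 against -10.3 to 29.1 for the other libraries. Without it, Fzd1 had a log2 fold change of 1.00 (limma adjusted p = 0.0105), Fzd2 of 0.68 (0.0207) and Sfrp1 of 1.54 (0.0616), so that only Sfrp1 lost its call. The labels do not tie the replicates to separate mice, and p-values then measure spread among libraries that may be technical in origin.

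The comparison asked which of these transcripts differed between the high dose and model libraries. Fzd1, Fzd2 and Sfrp1 were higher in high dose, and none of the feedback targets Axin2, Lef1, Nkd1, Rnf43 and Znrf3 passed the test in either direction. By limma on log2(FPKM + 1), with p-values adjusted over all 14418 genes, 3 of the 10 genes rose, 0 fell and 7 did not pass, where 5.86% of all tested genes rose and 4.27% fell. The 4 and 4 libraries did not overlap for 4 of the 10 (Fzd1, Fzd2, Sfrp1 and Rnf43, all higher in high dose), against 17.7% of all tested genes. The median log2 fold change was 0.23 over the 10 genes and 0.04 over all tested genes. Positive log2 fold changes mean higher in high dose; they were taken on log2(FPKM + 1), so those of low genes are understated.

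**Figure D1:**
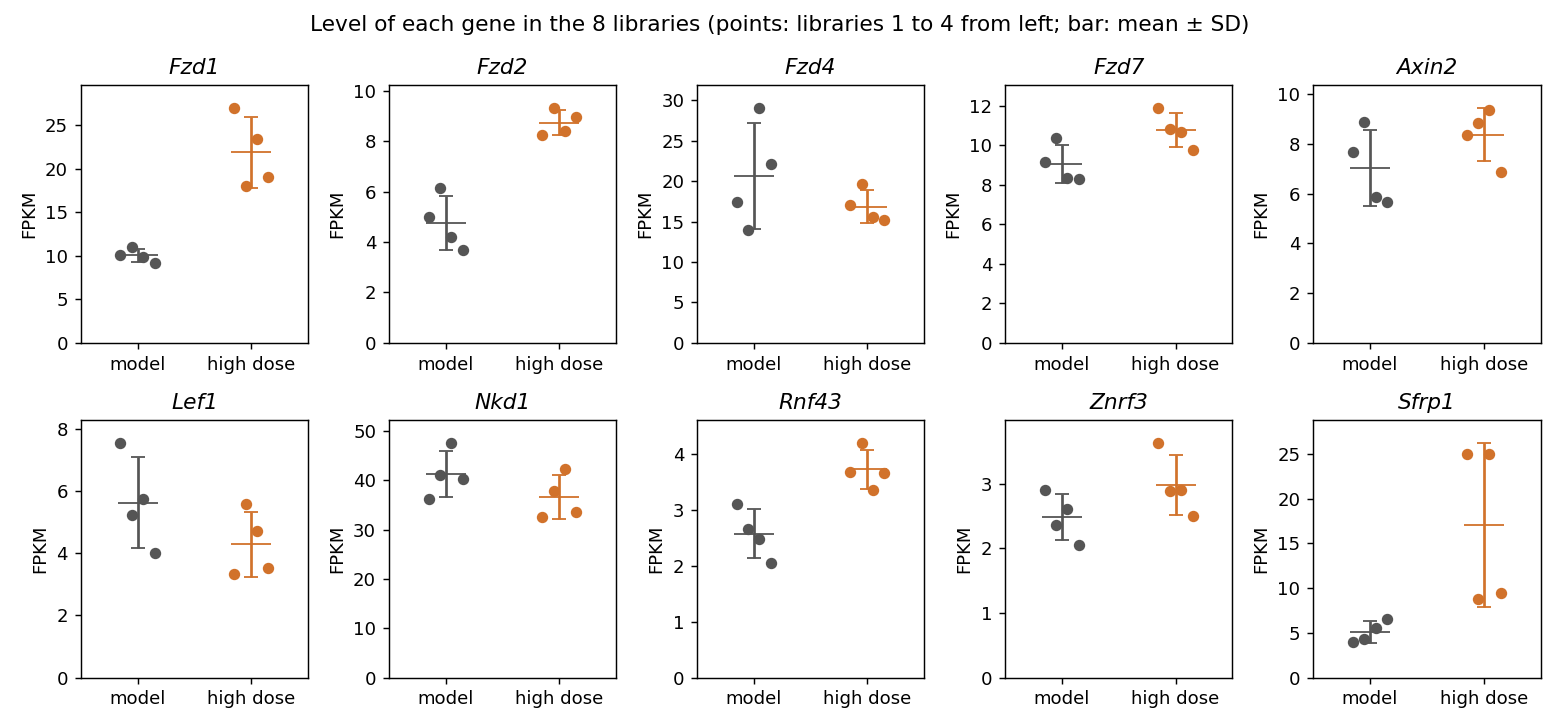
FPKM of each of the 10 genes (vertical axes, each from 0) in the 4 model libraries (grey) and the 4 high dose libraries (orange), with libraries 1 to 4 from left to right in each group and the mean ± SD as bars. The groups are apart for Fzd1, Fzd2, Rnf43 and Sfrp1 and overlap for the other 6 genes, and high dose replicates 1 and 3 lie far above replicates 2 and 4 for Sfrp1.

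Fzd1, a Frizzled of the subfamily it forms with Fzd2 and Fzd7, measured 10.1, 11.1, 9.90 and 9.20 FPKM in model replicates 1 to 4 and 26.9, 18.02, 23.4 and 19.1 FPKM in high dose replicates 1 to 4. Every high dose library lay above every model library, and the spread was wider in high dose. Means were 10.1 ± 0.766 FPKM in model and 21.9 ± 4.11 FPKM in high dose (SD, n = 4), and the log2 fold change was 1.03 ± 0.13 (SE, limma adjusted p = 0.00405, 95% interval 0.74 to 1.32). This call held in all 17 other settings and fits without 1 library that were run, with log2 fold changes from 0.93 to 1.12 and adjusted p of at most 0.0225.

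Fzd2 measured 5.01, 6.13, 4.20 and 3.70 FPKM in the model libraries and 8.23, 9.30, 8.42 and 8.97 FPKM in the high dose libraries. The groups did not overlap, and the order within high dose differed from that of Fzd1: replicates 1 and 3 were the highest for Fzd1 and the lowest for Fzd2. Means were 4.76 ± 1.06 and 8.73 ± 0.495 FPKM (SD, n = 4), with a log2 fold change of 0.77 ± 0.13 (limma adjusted p = 0.0102, 95% interval 0.47 to 1.07). All 17 alternatives kept this call too, with log2 fold changes from 0.68 to 0.90 and adjusted p of at most 0.0354.

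Fzd7, the third receptor of that subfamily, had 9.17, 10.4, 8.34 and 8.31 FPKM in the model libraries and 11.9, 10.8, 10.6 and 9.74 FPKM in the high dose libraries. High dose replicate 4 lay below model replicate 2, and the other high dose libraries lay above all model libraries. Its log2 fold change of 0.23 ± 0.10 did not pass (limma adjusted p = 0.172, 95% interval 0.01 to 0.45). Within a library, the ratio of Fzd1 to Fzd7 was 1.07 to 1.19 in model and 1.66 to 2.27 in high dose, and that of Fzd2 to Fzd7 was 0.445 to 0.590 and 0.693 to 0.921. Neither pair of ranges overlaps. These ratios do not depend on how a library was scaled. They were chosen after the values were seen, and the difference between the receptors' changes was not tested.

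Fzd4, a receptor also for the ligand norrin and prominent in endothelium, had 17.4, 13.9, 29.0 and 22.1 FPKM in the model libraries and 17.1, 19.6, 15.5 and 15.2 FPKM in the high dose libraries. The model libraries both held the lowest and the highest value and spanned the whole high dose range. Its log2 fold change was -0.23 ± 0.20 (limma adjusted p = 0.518, 95% interval -0.69 to 0.22), and without model replicate 3 it was -0.06. Per unit of the endothelial marker Pecam1, Fzd4 was 0.0591 to 0.120 in model and 0.0680 to 0.0893 in high dose, ranges that overlap. Of 8 endothelial markers 0 rose, 0 fell and 8 did not pass.

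**Figure D2:**
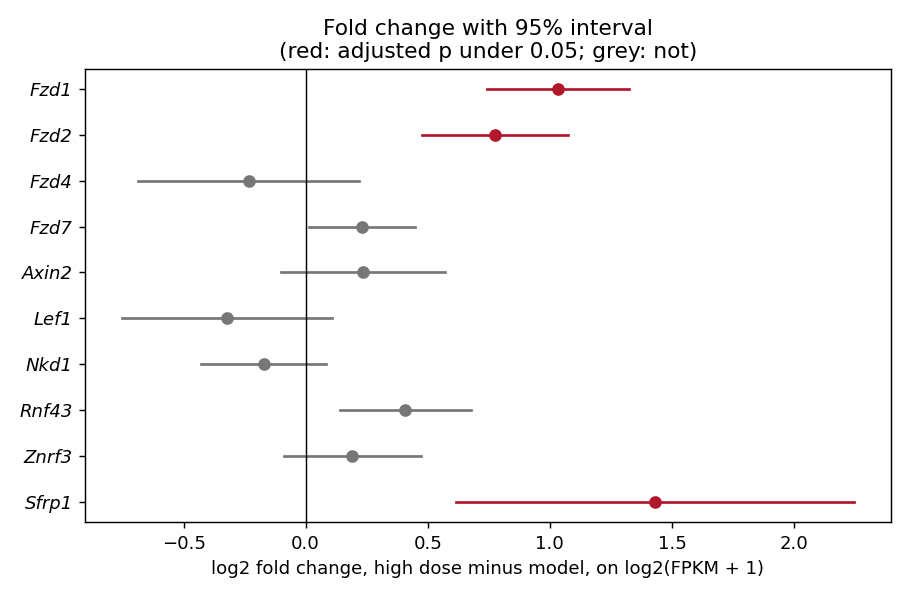
Log2 fold change of each gene, high dose minus model on log2(FPKM + 1) (horizontal axis), as points with 95% intervals from limma. Fzd1, Fzd2 and Sfrp1 (red) have an adjusted p under 0.05, and the other 7 genes (grey) do not, although the intervals of Fzd7 and Rnf43 lie above 0.

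The make-up of Frizzled transcripts was described as each receptor's percent of the summed FPKM of all 10 Frizzled genes in a library. The sum was 62.9 to 73.1 FPKM in the model libraries and 83.1 to 92.0 FPKM in the high dose libraries. Fzd1 made up 15.3%, 16.2%, 13.5% and 14.6% of it in model and 29.3%, 20.6%, 28.2% and 22.8% in high dose, means of 14.9% ± 1.12 and 25.2% ± 4.19 (SD, n = 4 each) with no overlap. Fzd4 made up 26.3%, 20.4%, 39.7% and 35.2% in model and 18.5%, 22.4%, 18.6% and 18.1% in high dose, so that only model replicate 2 reached into the high dose range. Fzd4 had the largest mean share of the 10 in model and Fzd1 had it in high dose. The shares of Fzd2 (7.05% ± 1.54 and 10.1% ± 0.814) and Fzd7 (13.4% ± 1.59 and 12.4% ± 0.582) overlapped between groups. Fzd6, a receptor linked to planar cell polarity whose value adds up 2 rows of the deposited table with similar numbers, held 18.5% ± 4.59 and 18.7% ± 3.24. If those rows share reads, its share is overstated.

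**Figure D3:**
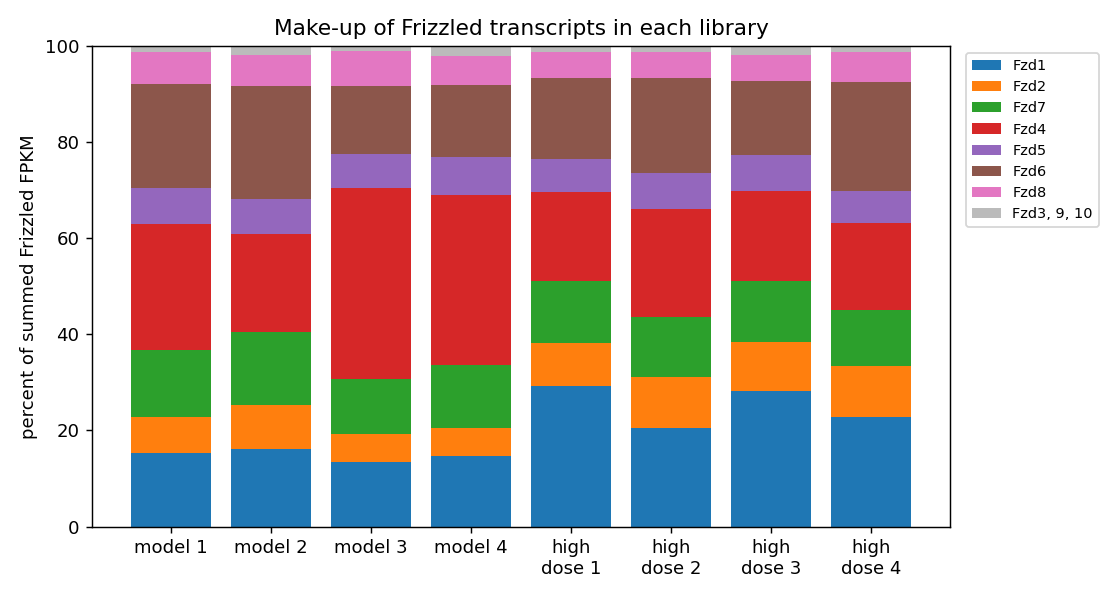
Percent of the summed Frizzled FPKM (vertical axis) contributed by each receptor in each of the 8 libraries, as stacked bars. The Fzd1 segment at the bottom is 13.5% to 16.2% in the model libraries and 20.6% to 29.3% in the high dose libraries, and the Fzd4 segment varies most among the model libraries.

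Of the 6 Frizzled genes outside the set, Fzd5, Fzd6 and Fzd8 passed the filter and none passed the test. Fzd5 had a mean of 5.05 ± 0.0808 FPKM in model and 6.15 ± 0.493 FPKM in high dose, groups that did not overlap (log2 fold change 0.24 ± 0.09, limma adjusted p = 0.117). Fzd6 had 12.5 ± 3.08 and 16.1 ± 2.65 FPKM (0.36 ± 0.18, limma adjusted p = 0.242) and Fzd8 had 4.51 ± 0.583 and 4.92 ± 0.317 FPKM (0.11 ± 0.10, limma adjusted p = 0.568). Fzd3, Fzd9 and Fzd10 lay under the filter.

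Sfrp1, a secreted protein with a Frizzled-like cysteine-rich domain that binds Wnts outside the cell, had 3.95, 4.34, 5.51 and 6.61 FPKM in the model libraries and 25.0, 8.75, 25.0 and 9.50 FPKM in the high dose libraries. The groups did not overlap, and the high dose libraries fell into a high pair (replicates 1 and 3) and a low pair (replicates 2 and 4). Means were 5.10 ± 1.20 and 17.05 ± 9.15 FPKM (SD, n = 4), with a log2 fold change of 1.43 ± 0.36 (limma adjusted p = 0.0393, 95% interval 0.62 to 2.24). This was the least stable of the 3 calls: it was lost in 6 of the 8 fits without 1 library (each model replicate, and high dose replicates 1 and 3), with log2 fold changes from 1.20 to 1.54 and adjusted p up to 0.102. Testing genes of every level, with no minimum, ended the call too (adjusted p = 0.0734).

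The high dose libraries in which Sfrp1 and Fzd1 were highest were also those in which Col1a1 was highest. Col1a1 had 19.0, 40.4, 16.9 and 83.5 FPKM in the model libraries and 127.9, 68.4, 118.4 and 74.8 FPKM in the high dose libraries. Per unit of Col1a1, Sfrp1 was 0.0791 to 0.327 in model and 0.127 to 0.211 in high dose, Fzd1 was 0.110 to 0.587 and 0.198 to 0.264, and Fzd2 was 0.0443 to 0.264 and 0.0643 to 0.136. All 3 pairs of ranges overlap. For Fzd1 and Fzd2 the overlap came from model replicate 4 alone (0.110 and 0.0443). The other model libraries lay above every high dose library, at 0.274 to 0.587 for Fzd1 and 0.152 to 0.264 for Fzd2. Per unit of Pdgfra, a receptor that marks lung fibroblasts, the ranges were apart: 0.125 to 0.214 and 0.239 to 0.741 for Sfrp1, 0.278 to 0.355 and 0.492 to 0.798 for Fzd1, and 0.118 to 0.197 and 0.244 to 0.311 for Fzd2. Pdgfra itself was 30.9 to 35.6 FPKM in model and 28.9 to 36.6 FPKM in high dose. In these bulk samples, fewer or more cells of a type and less or more RNA per cell cannot be told apart.

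Genes of several marker lists differed between the groups as well, where 5.86% of all tested genes rose and 4.27% fell. Of 11 fibroblast markers 2 rose (Npnt and Dpt), 0 fell and 9 did not pass, and their summed level was 1266 to 1702 FPKM in model and 1319 to 1914 FPKM in high dose. Of 8 alveolar type 2 markers 4 rose, 0 fell and 4 did not pass, with sums of 10680 to 15850 and 14300 to 20790 FPKM. Of 7 alveolar type 1 markers 2 rose, with sums of 1214 to 1932 and 1618 to 2094 FPKM, and of 9 smooth muscle and mural markers 2 rose, with sums of 260.3 to 378 and 288 to 468 FPKM. Of 6 neutrophil markers 6 fell, from sums of 1054 to 2710 FPKM to sums of 108.7 to 415 FPKM. Of 7 macrophage markers 0 passed (328 to 649 and 306 to 485 FPKM), as did 0 of 5 tested airway markers (18050 to 46150 and 10170 to 25500 FPKM) and 0 of 8 endothelial markers (963 to 1247 and 914 to 1251 FPKM). The part of these cell types in the rises of Fzd1, Fzd2 and Sfrp1 was not tested.

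None of the 5 feedback targets passed the test. Axin2, the scaffold that is widely read as a reporter of canonical signalling, had 7.66, 8.86, 5.88 and 5.66 FPKM in the model libraries and 8.35, 8.84, 9.36 and 6.88 FPKM in the high dose libraries. The groups overlapped, with model replicates 3 and 4 below all other libraries. The log2 fold change was 0.23 ± 0.15 (limma adjusted p = 0.368, 95% interval -0.10 to 0.57).

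Nkd1, which binds Dishevelled and damps the signal, was the most abundant of the 10 genes in both groups. It had 36.2, 41.2, 47.6 and 40.3 FPKM in the model libraries and 32.5, 37.9, 42.3 and 33.5 FPKM in the high dose libraries, groups that overlapped. Its log2 fold change was -0.17 ± 0.11 (limma adjusted p = 0.387, 95% interval -0.43 to 0.08). The interval of Nkd1 therefore holds no rise beyond 0.08, while that of Axin2 reaches to 0.57.

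Rnf43 and Znrf3, the ligases that clear Frizzled from the surface, were the lowest of the 10 genes. Rnf43 had 3.10, 2.65, 2.49 and 2.05 FPKM in the model libraries and 3.68, 4.19, 3.35 and 3.67 FPKM in the high dose libraries, so the groups did not overlap. It missed the threshold (log2 fold change 0.41 ± 0.12, limma adjusted p = 0.0628, 95% interval 0.14 to 0.68), and passed it only with the variance trend and robust settings off (adjusted p = 0.0484). The deposited table lists Rnf43 on 2 rows with similar values, so its summed level may count reads more than once. On the row with the higher mean alone the log2 fold change was 0.39 (limma adjusted p = 0.0566). That row had 1.03 to 1.57 FPKM in model and 1.82 to 2.06 FPKM in high dose. The lower row had 1.02 to 1.53 and 1.54 to 2.13 FPKM, groups that were barely apart, and its fold change is not given here. Znrf3 had 2.90, 2.37, 2.60 and 2.06 FPKM in model and 3.62, 2.88, 2.90 and 2.51 FPKM in high dose. Its groups overlapped and its log2 fold change of 0.19 ± 0.12 did not pass (limma adjusted p = 0.381, 95% interval -0.09 to 0.47).

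Lef1, a DNA-binding partner of beta-catenin that T cells also express, had 7.54, 5.22, 5.74 and 4.02 FPKM in the model libraries and 3.34, 5.57, 4.71 and 3.52 FPKM in the high dose libraries. The groups overlapped, and model replicate 1 was the highest of the 8 libraries. The log2 fold change was -0.32 ± 0.19 (limma adjusted p = 0.332, 95% interval -0.75 to 0.11). Per unit of Tcf7, a related factor, Lef1 was 0.524 to 0.788 in model and 0.393 to 0.595 in high dose, ranges that overlap.

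In the order of levels, Nkd1 and Fzd4 stood first and second in model, each above the next gene in every library. The model libraries of Fzd1, Fzd7, Axin2, Lef1, Sfrp1 and Fzd2, in that order, overlapped from each gene to the next, and Rnf43 and Znrf3 were the lowest and overlapped each other. In high dose Nkd1 was again first, and Fzd1, Sfrp1 and Fzd4 followed with overlapping libraries. Fzd7 came next by mean and stood apart from its neighbours in that order, Fzd4 and Fzd2. Sfrp1, higher by mean, lay below every high dose library of Fzd7 (9.74 to 11.9 FPKM) in replicates 2 and 4 (8.75 and 9.50 FPKM). Fzd2 and Axin2 overlapped below Fzd7, as did Lef1, Rnf43 and Znrf3 at the end. Only genes next to each other by mean were compared for this order.

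Promoter windows are shown to set a receptor that rose (Fzd1) beside its relative that did not pass (Fzd7), and the reporter target that did not pass (Axin2) beside a target that rose (Sp5, described next). The windows span 250 bases before to 50 after the annotated start, from RefSeq on GRCm38.p6, a build other than the mm39 of the deposited values. They lie at chr5:4758167-4758466 on the minus strand, chr1:59481897-59482196 on the plus strand, chr11:108920099-108920398 on the plus strand and chr2:70474673-70474972 on the plus strand. Capitals mark matches to the TCF and LEF core, searched on both strands as the letters CTTTGAT, with the variant letters CTTTGAA, and with the further variant CTTTGTT. On 1 strand these cannot overlap each other.
Fzd1: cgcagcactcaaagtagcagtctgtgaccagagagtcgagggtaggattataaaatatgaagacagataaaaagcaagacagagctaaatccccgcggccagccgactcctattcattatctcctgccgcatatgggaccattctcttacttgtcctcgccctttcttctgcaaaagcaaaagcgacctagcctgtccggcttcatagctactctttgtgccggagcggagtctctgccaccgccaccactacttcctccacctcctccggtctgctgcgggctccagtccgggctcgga
Fzd7: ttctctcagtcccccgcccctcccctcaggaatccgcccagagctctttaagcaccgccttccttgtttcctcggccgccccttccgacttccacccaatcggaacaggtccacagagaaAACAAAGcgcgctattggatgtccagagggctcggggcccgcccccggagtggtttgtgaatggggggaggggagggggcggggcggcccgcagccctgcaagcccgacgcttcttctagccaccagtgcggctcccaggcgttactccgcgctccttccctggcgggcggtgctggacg
Axin2: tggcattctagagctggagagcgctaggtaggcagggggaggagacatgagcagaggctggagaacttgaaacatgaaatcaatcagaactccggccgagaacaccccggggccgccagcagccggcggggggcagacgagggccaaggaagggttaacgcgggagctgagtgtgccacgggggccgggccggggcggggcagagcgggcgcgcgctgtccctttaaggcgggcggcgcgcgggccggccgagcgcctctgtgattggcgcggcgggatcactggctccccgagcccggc
Sp5: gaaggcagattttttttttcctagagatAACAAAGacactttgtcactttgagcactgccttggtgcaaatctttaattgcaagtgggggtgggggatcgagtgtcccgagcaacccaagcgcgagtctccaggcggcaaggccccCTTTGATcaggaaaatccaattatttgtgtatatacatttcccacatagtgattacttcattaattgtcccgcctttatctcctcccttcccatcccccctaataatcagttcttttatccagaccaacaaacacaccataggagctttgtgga

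The windows of Fzd1 and Axin2 hold none of these letters. Positions from the start are those of the first printed base of a match, on either strand. That of Fzd7 holds CTTTGTT on the reverse strand, printed as AACAAAG, at position -130. That of Sp5 holds CTTTGTT on the reverse strand at position -222 and CTTTGAT on the forward strand at position -104. Of the 10 genes 7 had a window in the table, and Fzd7 was the only 1 of the 7 with a match. Of 41 genes with a window in the pathway lists below, 7 held a match. Among those that rose, Sp5 held matches and Tnfrsf19 held 1 in 1 of its windows. Ptk7, Dvl3, Ctnnb1 and Prickle1 also rose and held none. Ccn4, Ccnd1 and Adgra2, and Fzd2 and Sfrp1 of the set, rose but had no window. The rest of the matches were in Reck, Gsk3a, Tcf7l2 and Zbtb38, which did not pass the test, and in Dkk1, under the filter. Among all 32851 windows 3.73% held CTTTGAT, 5.14% CTTTGAA, 5.85% CTTTGTT and 13.9% any of them. These are shares of windows, whereas the counts above are of genes, some of which have more than 1 window. A match is a run of letters, not a measured binding site, and sites outside a window are not seen. Whether matches go with a rise was not tested.

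Other pathway genes were counted from lists by role. Of 65 such genes 52 passed the filter, and of these 9 rose, 0 fell and 43 did not pass, with a median log2 fold change of 0.20. Over all tested genes 5.86% rose and 4.27% fell, with a median of 0.04, shares to be read beside each list below as well. The lists were chosen with earlier results of these data known. The list of other targets held 5 of the 9: of its 10 genes 5 rose, 0 fell and 5 did not pass, with a median of 0.52. Among those that rose, Ccn4 and Sp5 had model means under 1 FPKM (0.752 and 0.879 FPKM). Both passed the filter, a mean over all 8 libraries, only through their high dose values, which favours finding a rise. Ccn4, a matricellular protein, had means of 0.752 ± 0.245 and 3.09 ± 1.03 FPKM (SD, n = 4), with a log2 fold change of 1.20 ± 0.20 (limma adjusted p = 0.0094) that reached 2.02 with a smaller pseudocount of 0.01. Ccnd1, which encodes cyclin D1, had 43.9, 75.7, 67.3 and 63.9 FPKM in model and 110.3, 98.5, 123 and 110.0 FPKM in high dose (0.83 ± 0.16, limma adjusted p = 0.0154). Tnfrsf19, a receptor of the tumour necrosis factor family, had 7.11, 7.14, 5.84 and 4.28 FPKM in model and 11.6, 12.3, 10.9 and 10.2 FPKM in high dose (0.80 ± 0.14, limma adjusted p = 0.0128). The calls of Ccn4, Ccnd1 and Tnfrsf19 held in every alternative in which they were tested; Ccn4 was too low for the minimum of 5 FPKM.

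Sp5, a zinc finger factor whose promoter is shown above, had 1.27, 1.08, 0.724 and 0.432 FPKM in the model libraries and 2.60, 1.49, 2.09 and 2.44 FPKM in the high dose libraries. Its groups did not overlap, and its log2 fold change was 0.76 ± 0.18 (limma adjusted p = 0.0311). With pseudocounts of 0.1 and 0.01 it was 1.27 and 1.37, and both passed. The call was lost without model replicates 3 or 4 or high dose replicates 1, 3 or 4, with adjusted p up to 0.0868, and with no minimum level (adjusted p = 0.0599). The fifth of them was Prickle1, a planar cell polarity protein, with 0.62 ± 0.17 (limma adjusted p = 0.0489), lost without any library other than model replicate 2 (adjusted p up to 0.130) and under 6 of 9 other settings. Under those settings its adjusted p reached 0.0999. Nkd2, a relative of Nkd1, and Apcdd1, a membrane inhibitor of Wnt signalling, did not overlap between groups but missed the threshold (0.40 ± 0.12, limma adjusted p = 0.0803, and 0.43 ± 0.12, limma adjusted p = 0.0606). Apcdd1 passed without model replicate 2 (limma adjusted p = 0.0387). In the other 7 fits without 1 library and in 8 other settings it did not pass. Ccnd1, Ccn4 and Sp5 answer to other pathways too, and the source of their rise was not tested.

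Upstream of the targets, 2 of 9 coreceptors and alternative receptors rose, 0 fell and 7 did not pass. Ptk7, a Wnt-binding pseudokinase, had means of 9.66 ± 3.09 and 18.9 ± 3.06 FPKM (SD, n = 4; 0.92 ± 0.19, limma adjusted p = 0.0189), a call lost without model replicate 1 or high dose replicates 1 or 4 (adjusted p up to 0.0568). Adgra2, an adhesion receptor that acts as a Wnt cofactor in mouse brain vessels, rose from 6.57 ± 0.644 to 10.2 ± 1.28 FPKM (0.56 ± 0.11, limma adjusted p = 0.0157) and kept its call in all alternatives. The canonical coreceptors Lrp5 and Lrp6 had log2 fold changes of 0.04 ± 0.15 (limma adjusted p = 0.893) and 0.15 ± 0.08 (limma adjusted p = 0.244). Ror2, a receptor of the non-canonical branch, did not overlap between groups and missed the threshold (0.46 ± 0.13, limma adjusted p = 0.0536). It passed with the variance trend and robust settings off (limma adjusted p = 0.0353). It also passed without model replicate 2 (0.0467) or high dose replicate 2 (0.0451). In 7 other settings and 6 fits without 1 library it did not pass.

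Of 10 cytoplasmic transducers 2 rose, 0 fell and 8 did not pass. Ctnnb1, which encodes beta-catenin, had 180.0, 205, 176 and 162 FPKM in model and 256, 229.9, 232 and 237 FPKM in high dose (0.40 ± 0.09, limma adjusted p = 0.0297), and Dvl3, a Dishevelled, rose from 7.89 ± 0.187 to 10.7 ± 1.16 FPKM (0.39 ± 0.09, limma adjusted p = 0.0266). The call of Ctnnb1 was lost in 7 of 8 fits without 1 library (all but that without model replicate 2) and under quantile normalization, and that of Dvl3 in 5 (model replicates 1, 3 and 4, high dose replicates 1 and 3), with adjusted p up to 0.0873 and 0.0799. With no minimum level both were lost, at adjusted p = 0.0534 for Ctnnb1 and 0.0546 for Dvl3. Canonical signalling acts on the stability of beta-catenin protein, which transcript levels do not measure. Of 11 TCF factors and cofactors 0 passed, with a median of 0.07. Of 7 R-spondins and their receptors 3 passed the filter and 0 passed the test (median -0.18), and of 12 other secreted antagonists 6 passed the filter and 0 passed the test (median 0.28).

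**Figure D4:**
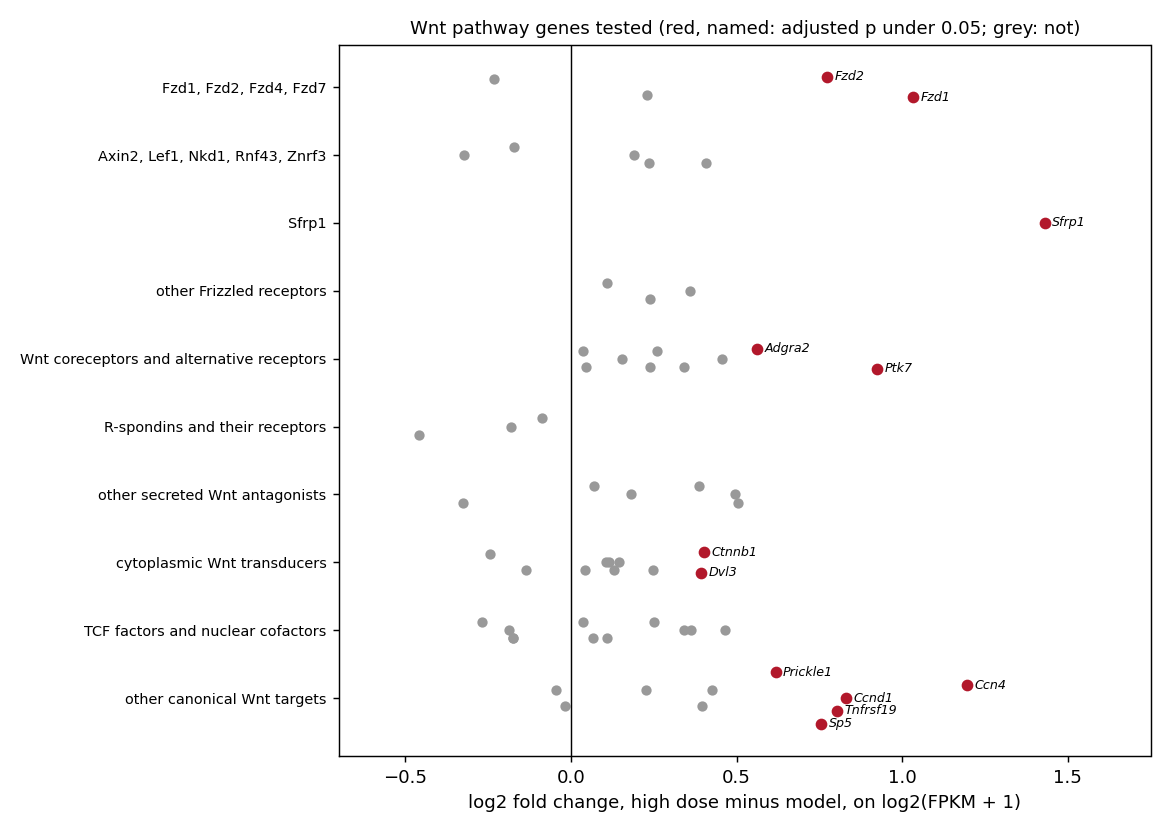
Log2 fold change, high dose minus model on log2(FPKM + 1) (horizontal axis), of every tested Wnt pathway gene by list (vertical axis), with genes of an adjusted p under 0.05 in red and named and the others in grey. All 12 red points lie to the right of 0, and 5 of them are in the list of other canonical targets, while the row of Axin2, Lef1, Nkd1, Rnf43 and Znrf3 holds 0. In the list of other canonical targets, Ccn4 and Sp5 passed the filter only through their high dose libraries, and Prickle1 is a planar cell polarity protein. The genes and lists were chosen with earlier results of these data known, so this pattern is a description.

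For each gene that rose, the tested genes most like it were taken by Pearson's r of log2(FPKM + 1) over the 8 libraries, leaving out predicted genes and antigen receptor segments. They included Lrp2 and B3gnt8 for Fzd1 (r = 0.992 each), Pcsk5, Abca3 and Crb3 for Fzd2 (r = 0.998, 0.992 and 0.990), and Ctps, Ccng1 and Pbk for Sfrp1 (r = 0.991, 0.989 and 0.987). These are among the highest values over all genes tested, and all 8 points share the difference between the groups.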

How the data were processed

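The authors deposited 1 table of FPKM values with 1 column per library and replicates not pooled. The unit is not in the header and was read from the values, decimals whose column sums differed between libraries (845852 to 1249864). Per the labels' protocols, a SMARTER kit was used; the submitters' processing notes name mm39. Aligner, counter, annotation and strand setting are not given in the sources used here. Absolute depth is unknown, so precision rests on the spread between 4 libraries.

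FPKM was summed over rows of the same gene name (1734 of 39290 names lay on more than 1 row; 7015 rows without a name were not used). Genes averaging 1 FPKM or more were tested as log2(FPKM + 1) with limma 3.58.1 in R 4.3.3 (group as the only term, trend and robust settings, two-sided, Benjamini-Hochberg over 14418 genes, threshold 0.05). The fit was tested on simulated data. No gene of the set was under the filter, so the exact test planned for such genes was not used. Shares and ratios are descriptions. Figures used matplotlib 3.10.9. Genes named are the 10 of the set, pathway genes that passed (at most 4 per list, smallest p first), other Frizzled receptors, and the most alike genes; Prickle1 (the fifth of its list), Ror2, Nkd2, Apcdd1, Lrp5, Lrp6, Npnt, Dpt, Pdgfra and Tcf7 were named after their values were seen. The genes of the set and the lists, markers and ratios were chosen with earlier results of these data known. Alternatives are in the closing section. The T cell marker list and 1 of the most alike genes are not reported here.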

Additional observations from a re-analysis of the deposited data

Results flagged for a closer look

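In 62 tested genes of the set and the pathway, each of the 124 groups of 4 libraries was searched for a library far from the other 3. The search found 5, a share no higher than the 1 in 20 or so that chance gives. None concerned the 10 genes of the set. Ptk7 was high in model replicate 3 (14.3 FPKM against 7.97 to 8.27 in the other model libraries). Tspan12, a partner of Fzd4 in norrin signalling, was low in high dose replicate 3 (17.8 FPKM against 26.6 to 28.3). Adgra2 was low in model replicate 2 (5.61 FPKM against 6.87 to 6.93). Sfrp4, a relative of Sfrp1, was high in model replicate 4 (3.32 FPKM against 0.327 to 0.511). Dkk3, a Dickkopf family protein, was high in model replicate 2 (35.5 FPKM against 20.5 to 20.9).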

How the results depend on the processing

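Alternatives changed the scaling (quantile or median), the variance settings, the filter (none or 5 FPKM), the pseudocount (0.1 or 0.01), the summing of rows, the model (replicate block) or the libraries (each left out once). No log2 fold change of the 10 genes changed sign in any of them. At a minimum of 5 FPKM, Lef1, Rnf43 and Znrf3 could not be fitted. The call of Sfrp1 (1.43) was lost without the filter and with the replicate block (1.43, adjusted p = 0.0679), and without 1 library its log2 fold change ran from 1.20 to 1.67. Rnf43 passed with 0.41 without trend and robust settings. Genes higher in high dose numbered 845, or 518 without the filter and 486 with the replicate block, and genes lower numbered 616. Without 1 library the higher genes ran from 364 to 1178: 436, 1178, 364 and 509 without model replicates 1 to 4, and 455, 559, 408 and 436 without high dose replicates 1 to 4. The lower genes ran from 329 to 970: 375, 970 and 329 without model replicates 1, 2 and 3, and 340 and 345 without high dose replicates 3 and 4. The cause was not tested.

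Same-numbered libraries did not all deviate together (correlations of 0.15, 0.28, -0.07 and -0.09). The pair of replicates 2 had the highest correlation of all pairs. Not every library correlated best with its own number, so the numbers were not read as pairs. Under the block the calls of Ptk7, Dvl3, Ctnnb1, Sp5 and Prickle1 were lost, with adjusted p up to 0.0690. With only Fzd1, Fzd2, Fzd4 and Fzd7 in the sum, the share of Fzd1 rose by 14.6 percentage points between groups, against 10.3 with all 10 Frizzled genes. An alternative added after seeing the data, Fzd6 from 1 of its 2 rows, moved the 4 receptors' share differences by less than the spread between libraries.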

Other observations

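The Frizzled genes under the filter differed in how they were detected. Fzd3 was the highest of them, with 0.517 to 0.966 FPKM in the model libraries and 0.874 to 1.08 FPKM in the high dose libraries. Fzd10 was at most 0.142 FPKM in 7 libraries and 0.614 FPKM in model replicate 4. Fzd9 was listed at 0 in model replicate 1 and at 0.0207 to 0.363 FPKM in the other libraries. These values were not tested.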
